A study of Mus musculus with 6 samples.

Results

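Bone morphogenetic proteins (BMPs) and growth and differentiation factors (GDFs) are secreted ligands of the transforming growth factor beta (TGF-beta) family. A ligand brings together type I and type II receptor kinases, the type II receptor activates the type I receptor, and the type I receptor phosphorylates receptor-regulated Smad proteins, which then bind the common Smad, Smad4, and move to the nucleus. Inhibitory Smads and secreted antagonists restrain the signal. In the pituitary, these ligands are known for their part in the formation of the gland and, with the related activins, in the control of follicle-stimulating hormone by gonadotropes.

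The 10 genes described here are the ligands Bmp4, Bmp7 and Gdf9, the receptors Bmpr1a and Bmpr2, the receptor-regulated Smads Smad1, Smad2 and Smad3, the common Smad Smad4, and the inhibitory Smad Smad7. They were chosen by gene symbol, and each matched 1 row of a count table of 47069 genes. The libraries came from LβT2, an immortalized mouse cell line with features of pituitary gonadotropes, at passage 14. All 6 samples had been exposed to gonadotropin-releasing hormone (GnRH, 2 nM) for 40 min, so no library here was without GnRH. In the fresh group (3 libraries) the cells had not been stored, and the study's methods describe their direct lysis and cold storage of the lysate. In the RNA-Best group (3 libraries) the cells had first been stored in the stabilizing buffer RNA-Best, for 4 days or longer at 4 °C. They were then spun down and lysed. Below, storage means that of cells in RNA-Best. These steps differ together between the groups, so their parts cannot be told apart. Whether each library had its own culture is not stated, and the p-values therefore measure only the spread between these libraries, which may be technical.

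Total counts were between 14477304 and 47438746 in the fresh libraries and between 4909418 and 11999363 in the RNA-Best libraries, so low values were less precise after storage. The labelled cell type was checked with marker genes. Of 6 gonadotrope markers, 5 had counts in these cells (Cga, Lhb, Gnrhr, Nr5a1 and Pitx1), Fshb had none in any library, and the list summed to 3050 to 3090 CPM (counts scaled to a library of 1000000 reads) in fresh libraries and 2540 to 2610 CPM in RNA-Best libraries. Its members went both ways, since edgeR called Cga 22.1% lower (adjusted p = 7.56e-14), Nr5a1 and Pitx1 also lower, and Gnrhr 34.7% higher (adjusted p = 5.66e-11). The 8 markers of other pituitary cell types summed to 0.839 to 1.17 CPM fresh and 1.43 to 2.39 CPM after storage, nearly all of it Tshb, which was called higher (log2 fold change 0.91, adjusted p = 0.0035), with Prl, Pou1f1 and Sox2 at 0 throughout. The 4 markers of fibroblasts and stroma summed to at most 0.271 CPM, with Col3a1 and Dcn at 0. The 4 markers of blood and endothelium summed to 193 to 195 CPM fresh and 197 to 211 CPM after storage, nearly all of it Cdh5 and Pecam1, while Ptprc was at 0. The part of these markers in the results was not tested.

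To ask whether storage in RNA-Best left the RNA of this pathway as it was in fresh cells, the groups were compared with edgeR's quasi-likelihood test across all genes, and a gene was called at a Benjamini-Hochberg adjusted p under 0.05. Both receptors, Smad3 and Smad4 were higher in the RNA-Best libraries, by 6.07% to 18.3%, and the ligand Gdf9 was 11.9% lower. Of the 10 genes, 9 had enough counts to be tested, 5 were called, 4 of them higher and 1 lower, and the groups did not overlap for those 5. Across all 14736 genes tested, 50.8% were called, 26.0% higher and 24.8% lower, and 57.5% had groups that did not overlap, so being called was about as frequent among these genes as among all genes. The median log2 fold change was 0.11 over the 9 tested genes and -0.01 over all tested genes.

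**Figure D1:**
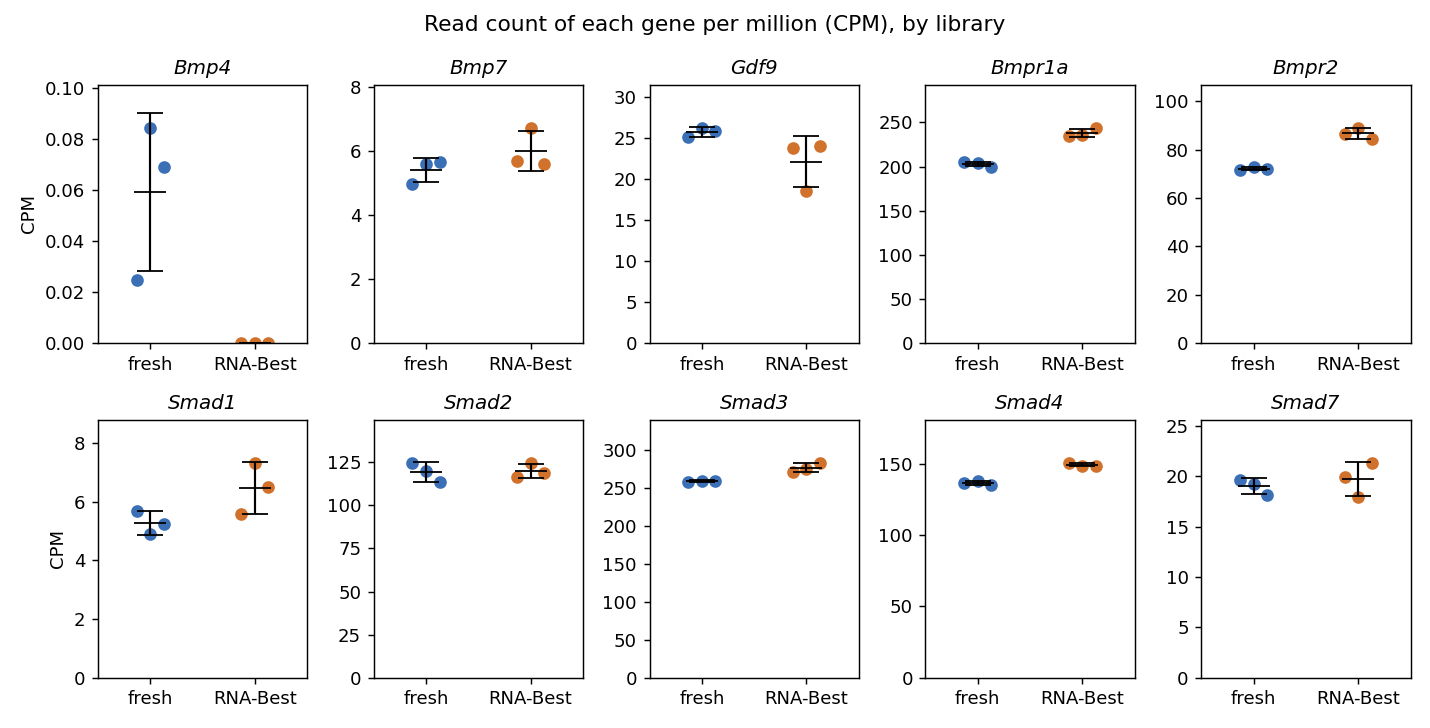
Each panel plots 1 gene's CPM (y axis, from 0) in the 3 fresh and 3 RNA-Best libraries (points), with the group mean and SD (bars). The groups stand apart for Gdf9 (lower after storage), Bmpr1a, Bmpr2, Smad3 and Smad4 (higher), overlap for Bmp7, Smad1, Smad2 and Smad7, and Bmp4 rests on 6 counts in all.

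Of the ligands, Gdf9 was the most abundant and the only one called. GDF9 is best known as an oocyte factor that acts on the surrounding granulosa cells. Gdf9 (ENSMUSG00000018238, GRCm38 chr11:53431023-53437904, plus strand) stood at 25.1, 26.2 and 25.8 CPM in the fresh libraries. In the RNA-Best libraries it stood at 23.8, 18.5 and 24.0 CPM. All 3 stored libraries were below all 3 fresh ones, and RNA-Best library 2, the shallowest, was well below the others, with 91 reads. The log2 fold change was -0.18 (SE 0.07, edgeR adjusted p = 0.0272), a fall of 11.9% with a 95% interval from 2.87% to 20.2%. Without RNA-Best library 2 it was -0.12 (adjusted p = 0.191) and without fresh library 2 it was -0.17 (adjusted p = 0.0768), so the call rested on single libraries, and it was not called with the length offset either.

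Bmp7 encodes a ligand that signals mainly through Smad1, Smad5 and Smad9. Bmp7 (ENSMUSG00000008999, chr2:172868012-172940321, minus strand) was low, at 4.96, 5.59 and 5.66 CPM in fresh libraries and 5.70, 6.72 and 5.58 CPM in RNA-Best libraries. The groups overlapped. The change of 8.18% had a 95% interval from -9.79% to 29.7% (edgeR adjusted p = 0.498), so a fall or a rise within those limits was not excluded.

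Bmp4 encodes a ligand needed for the early pituitary. Bmp4 (ENSMUSG00000021835, chr14:46383520-46390669, minus strand) had 1, 4 and 1 reads in the fresh libraries and 0 in each RNA-Best library. The fresh reads amount to 0.0586 CPM over the group, and a count of 0 in the RNA-Best group allows up to 0.117 CPM (3 reads of that group's total, counting error only). A difference in Bmp4 was therefore not detectable, and the gene was not tested. Of its exonic bases, 89 overlap the gene Gm15217 on the opposite strand.

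The study listed PCR primers for Bmp7 and Gdf9, which show which stretch of each ligand's RNA its assays read. A match of these primers to GENCODE transcripts placed the Bmp7 pair in the coding sequence of the transcript Bmp7-201, with the forward primer in exon 4 (chr2:172879327-172879344) and the reverse primer in exon 5 (chr2:172875240-172875262), for a product of 71 bases. The Gdf9 pair lay in the coding sequence of Gdf9-201, with the forward primer in exon 1 (chr11:53433738-53433757) and the reverse primer in exon 2 (chr11:53436628-53436647), for a product of 97 bases. Each pair spans an intron, and the primers read, from 5′ to 3′:
Bmp7 forward: aggatggccagtgtggca
Bmp7 reverse: acgtacagctcatgtttcttgca
Gdf9 forward: caataccgtccggctcttca
Gdf9 reverse: gttaaacagcaggtccacca
The PCR values were not analysed here, and the counts above cover the whole transcripts rather than these stretches.

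Both receptors were higher after storage. Bmpr1a encodes a type I receptor for BMPs and GDFs. Bmpr1a (ENSMUSG00000021796, chr14:34410734-34503341, minus strand) stood at 205, 204 and 199.97 CPM fresh and at 234, 236 and 244 CPM in RNA-Best libraries. The stored libraries were all above the fresh ones, and the gap was wider than the spread within either group. The rise was 16.5% (95% interval 11.6% to 21.5%, edgeR adjusted p = 1.73e-07), and the call was lost with the GC offset described with the length offset. Of its exonic bases, 290 overlap Gm17110 on the opposite strand.

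Bmpr2 encodes the type II partner that activates Bmpr1a. Bmpr2 (ENSMUSG00000067336, chr1:59763400-59879014, plus strand) stood at 71.6, 72.9 and 72.1 CPM fresh and at 86.6, 89.0 and 84.5 CPM in RNA-Best libraries. Here too every stored library was above every fresh one. The rise was 18.3% (95% interval 11.8% to 25.1%, edgeR adjusted p = 3.83e-06), with the direction depending on how exonic length was treated, as described with the length offset.

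The receptor-regulated Smads differed among themselves. Smad1 carries the BMP signal. Smad1 (ENSMUSG00000031681, chr8:79338395-79399518, minus strand) was low, at 5.70, 4.89 and 5.25 CPM fresh and 5.59, 7.33 and 6.50 CPM after storage. The groups overlapped through 1 stored library. The change of 19.5% had an interval from -0.453% to 43.3% (edgeR adjusted p = 0.0988), and without fresh library 1 the adjusted p was 0.0376.

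Smad2 and Smad3 carry signals of activins, TGF-beta and GDF9. Smad2 (ENSMUSG00000024563, chr18:76241580-76310963, plus strand) stood at 125, 119.8 and 113 CPM fresh and 116, 124 and 119 CPM in RNA-Best libraries, and the groups overlapped throughout. Its change was -1.71% with a 95% interval from -6.91% to 3.78% (edgeR adjusted p = 0.618), but it was called lower with the length and the GC offset. Smad3 (ENSMUSG00000032402, chr9:63646767-63757994, minus strand) stood at 257, 259 and 259 CPM fresh and 271, 275 and 283 CPM in RNA-Best libraries, all stored above all fresh. The rise of Smad3 was 6.07% (interval 1.76% to 10.6%, edgeR adjusted p = 0.0156), and it was not called without RNA-Best library 3 (adjusted p = 0.142) or without fresh library 1 (adjusted p = 0.05), nor with the length offset described later.

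Smad4 is the shared partner of all receptor-regulated Smads. Smad4 (ENSMUSG00000024515, chr18:73639009-73703780, minus strand) stood at 136.5, 138 and 135 CPM fresh and at 151, 148 and 149 CPM in RNA-Best libraries. The libraries of each group lay close together, and the groups stood apart. The rise was 8.26% (interval 3.38% to 13.4%, edgeR adjusted p = 0.00369), and it too was not called with the GC offset. Smad4 was the only one of the 10 genes with parts of reads in its count, in 2 libraries.

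Smad7 is an inhibitory Smad that blocks type I receptors and is itself a target of Smad signaling. Smad7 (ENSMUSG00000025880, chr18:75367529-75395935, plus strand) stood at 19.6, 19.3 and 18.2 CPM fresh and at 19.9, 17.9 and 21.3 CPM in RNA-Best libraries. The stored libraries held both the lowest and the highest value. The change was 3.96% with an interval from -6.14% to 15.2% (edgeR adjusted p = 0.545).

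The levels of the genes against each other were set per length, as CPM divided by the kb of exonic bases of all annotated transcripts (CPM per kb). In fresh libraries Smad3 was highest at 46.6 ± 0.248 CPM per kb (SD, n = 3), followed by Smad4 at 36.8 ± 0.305 CPM per kb and Bmpr1a at 31.9 ± 0.381 CPM per kb. Smad2 (13.6 ± 0.643 CPM per kb) and Gdf9 (12.7 ± 0.29 CPM per kb) came next. Their ranges nearly touched, since the lowest Smad2 and the highest Gdf9 library both stood at 12.9 CPM per kb. Smad7 (4.21 ± 0.169 CPM per kb) and Bmpr2 (4.01 ± 0.0358 CPM per kb) overlapped. Bmp7 (1.34 ± 0.0962 CPM per kb), Smad1 (0.843 ± 0.0647 CPM per kb) and Bmp4 (0.0264 ± 0.0138 CPM per kb) were lowest. Thus the type I receptor Bmpr1a was far above its type II partner per length, and Smad1 was the lowest of these 5 Smads.

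The order was the same in the RNA-Best libraries except that Bmpr2 (4.82 ± 0.125 CPM per kb) and Smad7 (4.37 ± 0.379 CPM per kb) changed places, still with overlapping ranges. Smad3 then stood at 49.8 ± 1.12 CPM per kb, Smad4 at 40.2 ± 0.331 CPM per kb and Bmpr1a at 37.5 ± 0.776 CPM per kb. Gdf9, at 10.9 ± 1.53 CPM per kb, was clear of Smad2 at 13.7 ± 0.471 CPM per kb.

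**Figure D2:**
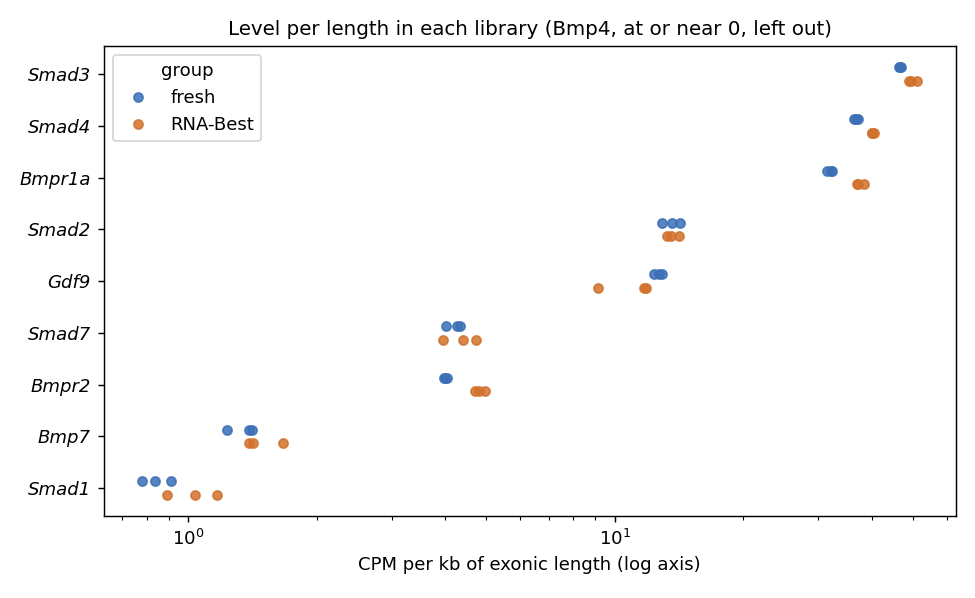
CPM per kb of exonic length (x axis, log scale) for 9 genes in each fresh and RNA-Best library (points), ordered by the fresh mean. Smad3, Smad4 and Bmpr1a lie at the top in both groups, Bmp7 and Smad1 at the bottom, and only Smad7 and Bmpr2 overlap as neighbors.

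Set beside their closest relatives, the Smads of the BMP branch were led by Smad5 and those of the activin branch by Smad3. Of the summed CPM per kb of Smad1, Smad5 and Smad9 in fresh libraries, Smad1 made up 12.7% ± 0.693, Smad5 75.8% ± 1.22 and Smad9 11.5% ± 0.737 (SD, n = 3). After storage the shares were 12.4% ± 1.45, 76.4% ± 1.02 and 11.2% ± 0.457. Smad3 made up 77.4% ± 0.915 of Smad2 and Smad3 together in fresh libraries and 78.5% ± 0.649 in RNA-Best libraries. These shares moved by about the spread between libraries or less, apart from Smad2 and Smad3, where the move was slightly wider than either SD.

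Among the type I receptors of the family, Bmpr1a held 51.8% ± 0.609 of the summed CPM per kb fresh and 52.8% ± 0.893 after storage, ahead of Tgfbr1 at 15.9% ± 0.421 in fresh libraries. Bmpr1b, the close relative of Bmpr1a, held 0.0335% ± 0.00903 in fresh libraries, on 12 reads. Among the type II receptors the leading gene was Amhr2, the receptor of anti-Müllerian hormone, with 93.1% ± 0.352 fresh and 89.1% ± 0.592 after storage. Bmpr2 held 3.43% ± 0.111 fresh and 5.04% ± 0.373 after storage, and Acvr2a 2.46% ± 0.202 and 4.32% ± 0.279. These shares still carry the trend of fold change with exonic length described later. Without an offset the log2 fold changes were 0.24 for Bmpr2, 0.49 for Acvr2a and -0.35 for Amhr2. With the length offset they were -0.18, 0.39 and -0.275, so the gain in the share of Bmpr2 depended on how length was treated. Among the 6 ligands with the most reads or in the list above, Gdf9 held 53.8% ± 0.269 fresh and 52.5% ± 1.25 after storage, and Gdf11 23.5% ± 0.652 and 25.0% ± 0.318.

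Ratios of reads within a library do not depend on how libraries are scaled, but they keep the trend with exonic length described below. With the length offset the log2 fold change was -0.18 for Bmpr2 and 0.09 for Bmpr1a. The ratio of Bmpr2 to Bmpr1a reads was 0.356 ± 0.00563 fresh and 0.364 ± 0.0157 after storage, with overlapping groups (two-sided exact permutation p = 0.5). The ratio of Smad2 to Smad3 was 0.462 ± 0.0242 fresh and 0.434 ± 0.0168 stored (exact permutation p = 0.2), and that of Smad1 to Smad5 was 0.141 ± 0.00976 and 0.137 ± 0.0177 (exact permutation p = 0.8). The ratio of Smad7 to Smad4 was 0.139 ± 0.00484 and 0.132 ± 0.0114 (exact permutation p = 0.4). Only the ratio of Smad4 to the sum of Smad1, Smad2 and Smad3 stood apart, at 0.353 to 0.359 in fresh and 0.364 to 0.384 in RNA-Best libraries, with an exact permutation p = 0.1, the smallest that 3 against 3 libraries allow; in thinned counts it did not stand apart (exact permutation p = 0.4). Adjusted over the 5 ratios, the exact permutation p-values were between 0.5 and 0.8.

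The fold change moved with exonic length over all tested genes, and the 9 tested genes differ in length from 2031 bases (Gdf9) to 17983 bases (Bmpr2). The median log2 fold change was -0.22 for the 1571 tested genes up to 1 kb, -0.07 for the 5781 genes of 2 to 5 kb, 0.13 for the 4252 genes of 5 to 10 kb, and 0.33 for the 1244 genes over 10 kb. Bmpr2, at 0.24, was below the median of its length range, and Bmpr1a, at 0.22 and 6.35 kb, was above that of its own. Smad2, at -0.02 and 8.78 kb, lay at the lower quartile of the genes of 5 to 10 kb. Smad4, at 0.11 and 3.71 kb, was above the upper quartile of 0.08 among genes of 2 to 5 kb.

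**Figure D3:**
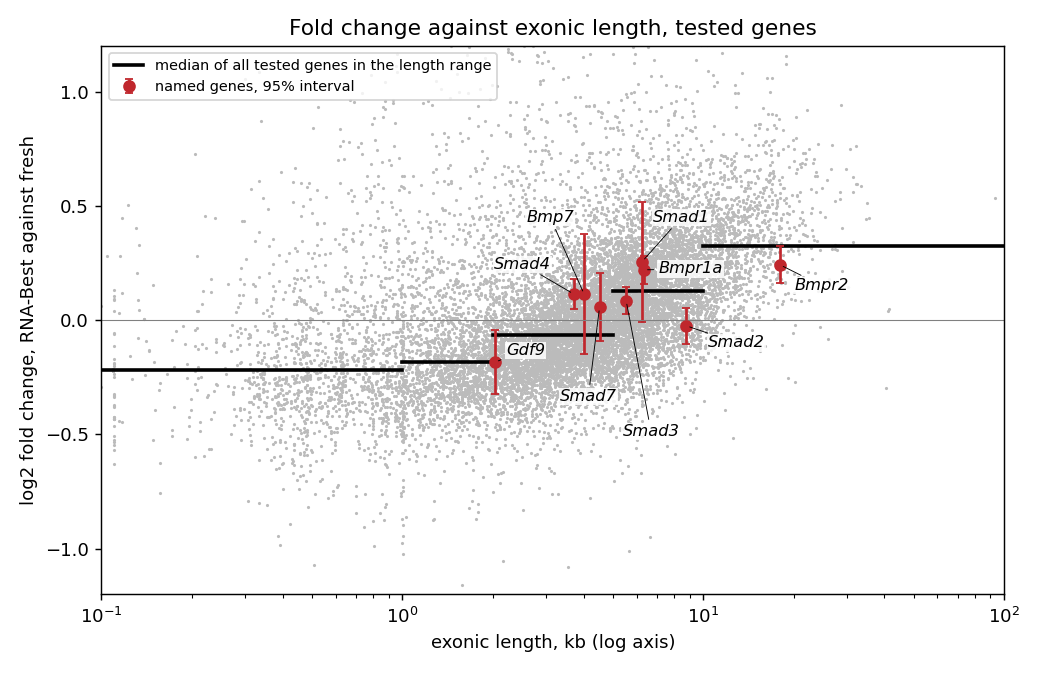
Log2 fold change of RNA-Best against fresh (y axis) against exonic length in kb (x axis, log scale) for the tested genes (gray), with the median in each of 5 length ranges (black lines) and the 9 tested genes of the pathway with 95% intervals (red). The median climbs from -0.22 below 1 kb to 0.33 above 10 kb; 137 genes lie beyond the plotted limits of -1.2 and 1.2, and 47 tested genes have no length.

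An offset that removes each library's smooth trend with exonic length changed what was called. With it, Bmpr2 was called lower after storage (log2 fold change -0.18, edgeR adjusted p = 0.00022), the opposite of its direction without it. Smad2 was then called lower (-0.25, adjusted p = 1.49e-06), Bmpr1a stayed higher (0.09, adjusted p = 0.0141) and so did Smad4 (0.11, adjusted p = 0.00542). Smad3 (-0.01, adjusted p = 0.86) and Gdf9 (-0.12, adjusted p = 0.192) were not called. Of the 9 genes, 2 were then higher and 2 lower, while 42.3% of all tested genes were called, 2160 higher and 4066 lower, against 3828 and 3651 without the offset.

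With the same offset built on GC content of the transcript, 3 of the 9 were called, and 48.9% of all tested genes (3073 higher, 4138 lower). Called were Smad3 (0.11, edgeR adjusted p = 0.00263), Smad2 (-0.15, adjusted p = 0.00108), which was not called without an offset, and Gdf9 (-0.17, adjusted p = 0.046). Bmpr1a (0.06, adjusted p = 0.115), Bmpr2 (0.08, adjusted p = 0.114) and Smad4 (0.06, adjusted p = 0.106) were not. The GC content was 41.3% in Bmpr1a, 41.0% in Bmpr2 and 44.9% in Smad2, against 56.9% in Smad7. Its part in these changes was not tested. None of the 9 genes was called under both offsets and without an offset. No gene of the 9 passed a test against a change of 1.2-fold (edgeR's glmTreat), which called 11.5% of all tested genes; 0 of the 9 had an unadjusted p under 0.05 in it, while the plain edgeR and limma voom tests each called 5.

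**Figure D4:**
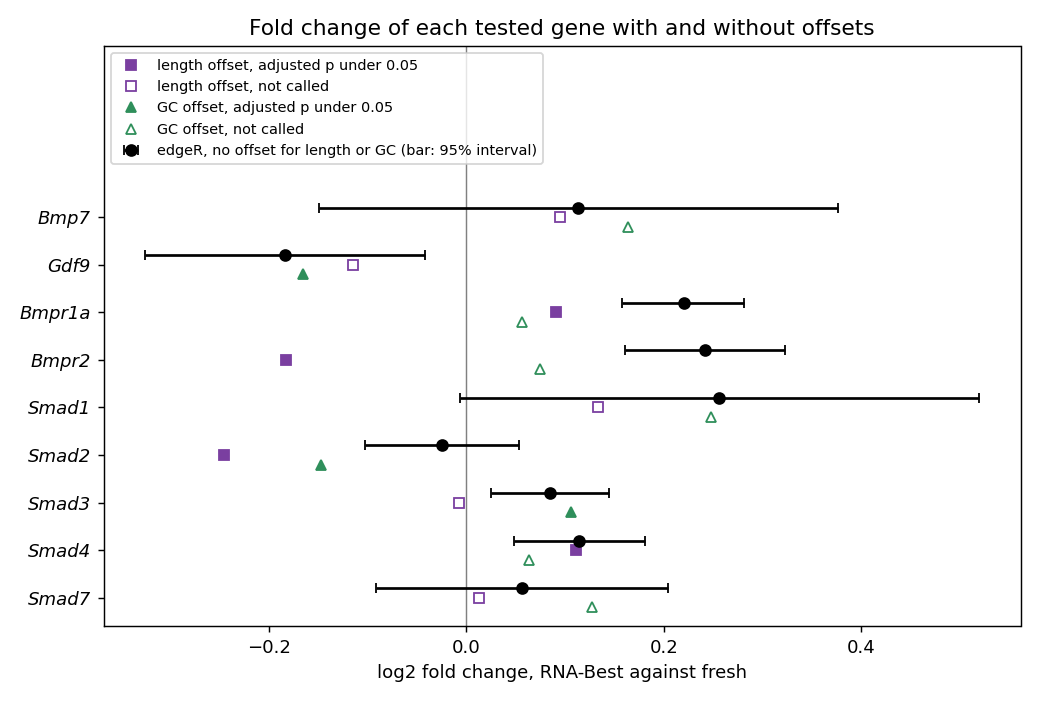
Log2 fold change of RNA-Best against fresh (x axis) for the 9 tested genes, without an offset (black, with 95% interval), with a length offset (squares) and with a GC offset (triangles), filled where the adjusted p is under 0.05. Bmpr2 crosses 0 with the length offset, from 0.24 to -0.18.

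The rest of the pathway was read from a list of 83 further genes, of which 82 matched a row of the table (Gdf1 did not). Of these, 49 were tested and 26 called, 19 higher and 7 lower after storage, with a median log2 fold change of 0.12. The share called, 53.1%, was near the 50.8% of all tested genes, but the directions differed. Of the calls, 73.1% were higher in this list and 51.2% over all genes. Over all tested genes 26.0% were called higher and 24.8% lower, and the counts by role stand against the same background. With the length offset the calls were 10 higher and 10 lower (all genes, 2160 and 4066), and with the GC offset 11 higher and 8 lower (all genes, 3073 and 4138). No count was seen in any library for 12 of the 82 genes, namely the ligands Bmp2, Bmp3, Bmp5, Gdf2, Gdf5, Gdf6 and Gdf10 and the antagonists Nog, Cer1, Sost, Sostdc1 and Fst, which allows each at most 0.0293 CPM over the fresh group and 0.117 CPM over the RNA-Best group.

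Ligands were few. Of 18 further BMP and GDF ligands, 3 were tested and 0 were called by edgeR, limma voom or DESeq2 (an unadjusted p under 0.05 was given to 1, 1 and 0 of them). Gdf11 had 22.5 ± 0.253 CPM fresh and 20.9 ± 2.28 CPM stored (SD, n = 3), Gdf15, a stress-induced family member, had 6.91 ± 0.297 and 5.56 ± 1.02 CPM, and Bmp6 had 0.940 ± 0.213 and 0.568 ± 0.204 CPM. Their adjusted p-values were 0.345, 0.0669 and 0.197. Gdf15 was lower in all 3 stored libraries, at 5.70, 4.48 and 6.50 CPM, against 6.78, 7.25 and 6.70 CPM fresh.

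Of 12 further receptors and co-receptors, 8 were tested, 5 were higher and 1 was lower. The activin and BMP type II receptors Acvr2a and Acvr2b were higher, with log2 fold changes of 0.49 (edgeR adjusted p = 5.57e-07) and 0.58 (adjusted p = 0.00689). Acvr2a stood at 16.1, 17.4 and 15.6 CPM fresh and 22.5, 24.2 and 23.9 CPM stored. Acvrl1, a type I receptor known from endothelium, was called higher (0.73, adjusted p = 0.0199) on few reads: 42, 43 and 17 fresh and 19, 3 and 21 stored, with RNA-Best library 2 below all others at 0.611 CPM. Acvrl1 was not called without fresh library 2 (adjusted p = 0.0752), RNA-Best library 1 (0.239) or RNA-Best library 3 (0.13), and Acvr2b was not called without RNA-Best library 3 (0.278). The co-receptor Tgfbr3 (betaglycan) was higher by 0.24 (adjusted p = 5.90e-06). The 1 receptor that fell was Amhr2, by far the most abundant per length at 109 CPM per kb fresh and 85.5 CPM per kb stored. Amhr2 stood at 218, 212 and 226 CPM fresh and 170.1, 163 and 181 CPM stored, with a log2 fold change of -0.35 (adjusted p = 2.68e-10). Acvr2a, Acvr2b, Acvrl1, Tgfbr3 and Amhr2 were called in the same direction with the length and the GC offset. The fifth receptor gene called higher, the co-receptor gene Rgmb (0.21, adjusted p = 0.00962), was called with neither (adjusted p = 0.718 and 0.115).

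Of the 3 other Smads, Smad5 was higher and the other two were not called. Smad5, the main BMP Smad of these libraries, stood at 37.6, 37.0 and 37.4 CPM fresh and 48.1, 49.5 and 44.8 CPM stored, a log2 fold change of 0.31 (edgeR adjusted p = 3.26e-06), and it was also called higher with the length offset (0.14, adjusted p = 0.0191) and the GC offset (0.19, adjusted p = 0.00203). Smad9 was at 4.10 ± 0.339 CPM fresh and 5.03 ± 0.253 CPM stored (0.24, adjusted p = 0.159). The inhibitory Smad6 was at 17.3 ± 0.626 and 15.7 ± 1.59 CPM (-0.14, adjusted p = 0.154).

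Of 19 extracellular regulators, 10 were tested, 1 was higher and 1 lower. Twsg1, a secreted partner of chordin and BMPs, was the most abundant and rose from 149.8 ± 3.71 to 166 ± 3.81 CPM (0.12, edgeR adjusted p = 0.00194). The BMP antagonist Nbl1 fell from 7.71 ± 0.505 to 5.93 ± 0.387 CPM (-0.38, adjusted p = 0.00809). Twsg1 was called with neither the length offset (0.05, adjusted p = 0.222) nor the GC offset (0.01, adjusted p = 0.864), and Nbl1 was not called with the GC offset (adjusted p = 0.075). The antagonist Chrd stood at 2.31 ± 0.174 and 1.63 ± 0.177 CPM (-0.51, adjusted p = 0.0512), and was called lower with the length offset (-0.63, adjusted p = 0.0155). The protease Bmp1 (-0.02, adjusted p = 0.775) and the activin antagonist Fstl3 (0.32, adjusted p = 0.362) were not called, though Bmp1 was with the length offset (-0.24, adjusted p = 8.25e-05).

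Intracellular regulators were all expressed. Of 14 tested, 9 were higher, 1 was lower and 4 were not called. Skil, a repressor of Smad-driven transcription, rose by 0.44 (edgeR adjusted p = 5.66e-10), from 44.3 ± 0.889 to 60.9 ± 1.45 CPM. The endosomal protein gene Zfyve16 (0.40, adjusted p = 0.00124), the ubiquitin ligase gene Smurf2 (0.27, adjusted p = 2.89e-06) and Tob1 (0.16, adjusted p = 0.000696) were also higher. Fkbp1a, whose protein binds and restrains type I receptors, fell from 371 ± 2.29 to 331 ± 3.55 CPM (-0.18, adjusted p = 1.74e-06). With the length offset 4 of the 14 were higher and 2 lower, and with the GC offset the counts were again 4 and 2. Skil, Smurf2 and Fkbp1a were called in the same direction with each offset, while Zfyve16 (adjusted p = 0.057) and Tob1 (adjusted p = 0.331) were not called with the GC offset.

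Of 8 BMP target genes listed, 6 were tested, 3 of them (Id1, Id3 and Msx1) were lower and 3 were not called, with a median log2 fold change of -0.20. Id1, an early target of Smad1 and Smad5, stood at 91.2, 87.7 and 93.0 CPM fresh and 70.3, 67.6 and 71.8 CPM stored (-0.37, edgeR adjusted p = 2.95e-09). Id3 stood at 169, 171 and 184 CPM fresh and 132, 142 and 142.5 CPM stored (-0.33, adjusted p = 2.21e-09). Hey1 was not called (-0.22, adjusted p = 0.0598). These targets are short, with a median exonic length of 2.77 kb among those tested, against 3.92 kb over all tested genes. With the length offset Id1 (-0.27, adjusted p = 2.39e-06) and Id3 (-0.25, adjusted p = 4.36e-07) were still called lower. With the GC offset 4 of the 6 targets were called lower, Id2 among them (-0.20, adjusted p = 5.1e-06).

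Of 8 TGF-beta ligands and receptors of the Smad2 and Smad3 branch, 5 were tested, 3 were higher and 1 was lower. The type I receptors Acvr1c (0.43, edgeR adjusted p = 3.17e-07), Tgfbr1 (0.19, adjusted p = 0.000684) and Acvr1b (0.14, adjusted p = 0.0345) rose, and the ligand Tgfb1 fell (-0.23, adjusted p = 0.0137). Tgfb1 was not called without fresh library 2 (adjusted p = 0.0579) or RNA-Best library 3 (0.247), and Acvr1b was not called without any 1 of 4 libraries (fresh 2 and 3, RNA-Best 2 and 3, adjusted p = 0.0536 to 0.199). Tgfbr2, the type II receptor for TGF-beta, was not called (0.26, adjusted p = 0.109). With the length offset Acvr1c was called higher (0.20, adjusted p = 0.0082) and Tgfb1 lower (-0.30, adjusted p = 0.00192), while Tgfbr1 (0.05) and Acvr1b (0.10) were not called. With the GC offset Tgfbr1 was not called either (adjusted p = 0.754).

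Of the genes given values from this list, Bmp6, Acvrl1, Acvr2a, Chrd, Fstl3 and Acvr1c share exonic bases with a gene on the opposite strand, and Tgfbr3, Smad5 and Smurf2 with one on the same strand, from 58 to 1157 bases. Of those without counts, Bmp5, Gdf5 and Fst overlap a gene on the opposite strand by 1878, 936 and 115 bases. The strand setting of the counting is not given in the sources used here, so reads there could not be assigned to 1 gene with certainty.

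**Figure D5:**
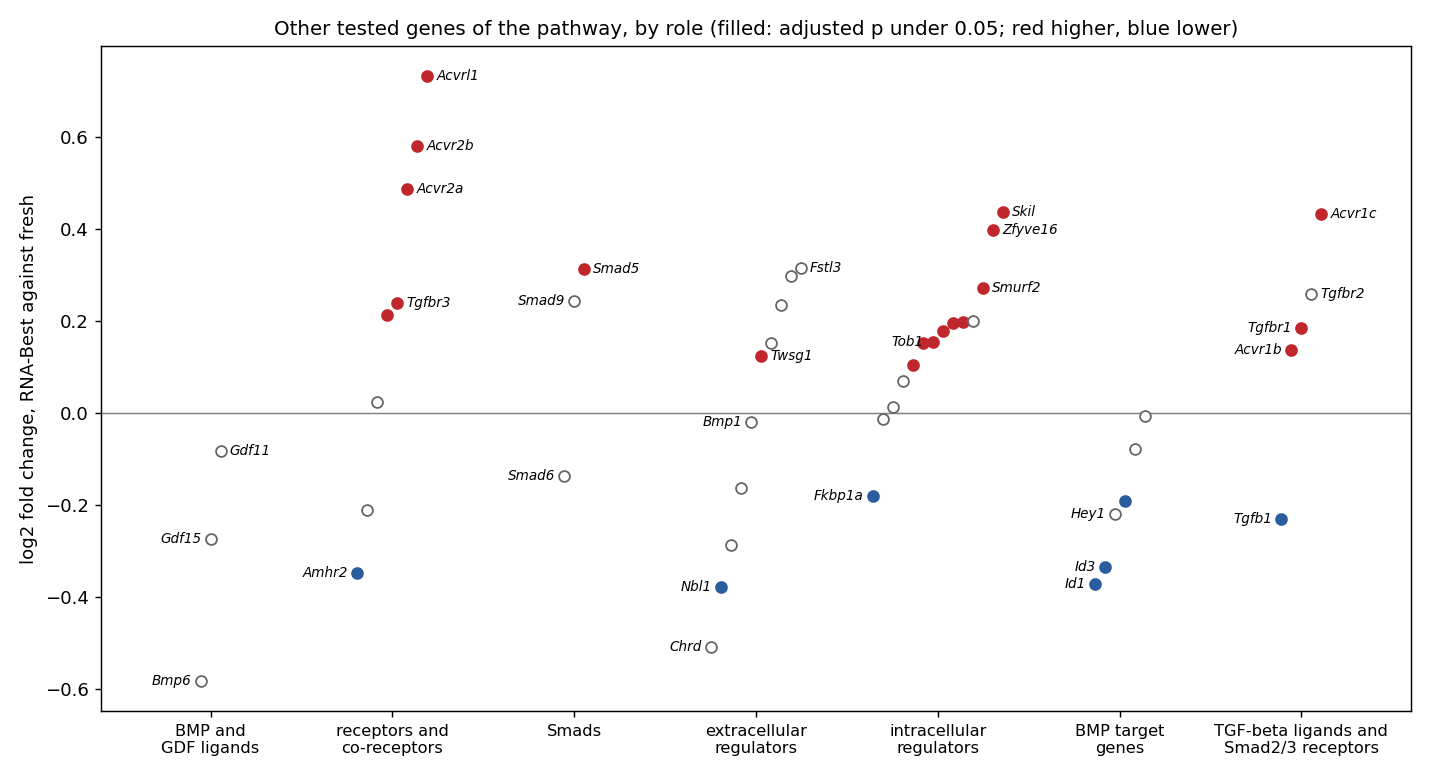
Log2 fold change of RNA-Best against fresh (y axis) for the 49 other tested pathway genes, grouped by role (x axis), filled where the adjusted p is under 0.05 (red higher, blue lower) and open where not called. Intracellular regulators lie mostly above 0 (9 of 14 higher), and the 6 BMP target genes lie at or below 0 (3 called lower).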

How the data were processed

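Bulk RNA-seq was analysed from 3 fresh and 3 RNA-Best-stabilized LβT2 libraries. Libraries had been made with a TruSeq mRNA kit and read from 1 end. The authors used STAR (2.5.1b) for alignment to GRCm38 and featureCounts (1.5.0-p1) for counting, per the labels and the study's methods. Values were deposited as estimated counts, not normalized: 9.36% to 16.3% of values per library were not whole (tolerance 0.001), and they were rounded for count models. The study's methods used voom and limma, with a minimum fold change beside the false discovery rate. The calls here had no minimum fold change, apart from the 1.2-fold test. Here edgeR (4.0.16) was the main test: TMM factors, quasi-likelihood fits on both groups, a minimum count of 10 (filterByExpr), and Benjamini-Hochberg adjustment over all genes tested. limma (3.58.1) voom, DESeq2 (1.42.0), offsets, thinning and leaving out each library were alternatives. CPM were computed from the column totals. Intervals of fold changes are at 95%.

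The members and the pathway and marker lists were chosen with earlier results of these data known. All 10 members were described in every library, and of the other pathway genes the 3 with the largest absolute log2 fold change and the 2 with the highest CPM per kb in each role were named. Rgmb, Msx1, Id2, Bmpr1b and the genes without counts were named in addition, after their values were seen. Of 47069 genes, 46574 matched the GENCODE annotation of GRCm38, a later release than the authors', from which positions, exonic length and GC content were taken. Log2 fold changes, ratios and p-values were computed here. Ratios were tested with exact permutation tests in SciPy (1.17.1). Libraries of a group were compared by a chi-square test of their counts over genes, where sampling noise alone gives about 1 per gene. The values were 1.66 to 1.95 between fresh libraries and 1.08 to 1.26 between RNA-Best libraries. All were above that noise (largest chi-square p = 2.41e-11), the RNA-Best pairs by less, so each library was kept as 1 sample. Same-numbered libraries did not deviate together from their group means (correlations -0.00563, 0.0355 and 0.00243). No pairing by number was seen, which does not exclude one. The scripts were tested on simulated data.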

Additional observations from a re-analysis of the deposited data

How the results depend on the processing

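Of 7479 genes, 5 of the 10 members and 26 of the other pathway genes called by edgeR, the counts were 7472, 5 and 27 with the replicate block, and 6357 to 7273, 4 to 5 and 24 to 26 when 1 library at a time was left out. These are counts and need not hold the same genes: without fresh library 1, Smad3 was not called and Smad1 was. A test against a 1.2-fold change called 1693 of 14736 genes (1277 higher, 416 lower), 0 members and 5 other pathway genes. Members called were 3 without a filter on low counts (28.0% of 27250 genes), 3 with the GC offset (48.9% of genes) and 3 in counts thinned to 4909268 reads per library (40.7% of 12993 genes). Of all genes called, 51.2% were higher, against 34.7% with the length offset and 42.6% with the GC offset. Signs changed for Bmpr2 with the length offset (-0.18, and -0.19 with the replicate block as well) and for Smad3 (-0.00763 and -0.0121). They also changed for Bmp7 (-0.0107) and Smad2 (0.0684) in thinned counts, for Smad2 without fresh library 1 (-0.0503 to 0.00731 over the left-out libraries) and for Smad7 without RNA-Best library 3 (-0.0133 to 0.0969). Neither Bmp7, Smad2 nor Smad7 was called there. In thinned counts the log2 ratio of Smad2 to Smad3 was -0.021 and that of Smad4 to the sum of Smad1, Smad2 and Smad3 was 0.0959 (exact permutation p = 0.4), against -0.0889 and 0.0579 (exact permutation p = 0.1). The ratio of Bmp4 to Bmp7 was not computed, since Bmp4 had no reads in RNA-Best libraries. DESeq2 lost the call of Gdf9 (adjusted p = 0.0886), as did thinning (adjusted p = 0.185), which also lost Smad3 (adjusted p = 0.0618). Without a filter, Smad3 (adjusted p = 0.451) and Smad4 (adjusted p = 0.178) lost theirs. Apart from the length, GC and 1.2-fold tests, Bmpr1a and Bmpr2 were called higher under every alternative. The causes were not tested. Depth in RNA-Best limits statements on Bmp4, Bmp7 and Smad1.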
